A study of Rattus norvegicus with 6 samples.

Results

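The genes of DNA replication and nucleotide synthesis were followed on 6 Affymetrix Rat Genome arrays in 3Y1, a rat fibroblast line of embryonic origin. The set was defined by 49 gene symbols: the helicase and its loading factors, the DNA polymerases, the sliding clamp and its loader, single-strand binding and ligation factors, nucleotide enzymes, chromatin and repair factors of S phase, and regulators of S phase entry. A probe set counted for a gene when the platform annotation gave it that single gene, and the probe set with the highest mean signal over the 6 arrays stood for the gene. By this rule 46 of the 49 genes were found, among 14217 genes named in the whole table, and all 46 passed the filter on mean signal (10037 genes did). No probe set was listed for Cdc6 or Gins2, and those of Rrm2 were shared with Rrm2l1, so these 3 genes were not analysed here.

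The arrays fell into 3 groups of 2, which the labels call biological replicates. Vector culture was 3Y1 stably transfected with an empty vector, and MUC1-CD culture was 3Y1 stably transfected to express MUC1-CD, the cytoplasmic part of MUC1, a mucin of the cell membrane. MUC1-CD tumors were the same MUC1-CD line grown under the skin of female athymic mice, animals without mature T cells that keep their other host cells. The labels do not say whether a line was a clone or a pool, and no Vector tumors are among the arrays. Cultured cells were lysed in TRIzol, whereas tumors were snap-frozen, soaked in an RNA preservative and purified over columns as well, so the growth setting and the way RNA was prepared cannot be told apart. The stated aim was to find genes that accompany transformation and tumor growth by MUC1-CD. Rat Muc1 signals were low (92.6 and 83.2 in Vector culture, 43.5 and 26.7 in MUC1-CD culture and 61.3 and 51.7 in tumors) with a mean below the filter, and an array for the rat gene does not check the labels of a transfected domain.

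Replication origins are licensed in G1 phase, when the origin recognition complex, CDC6 and CDT1 load the MCM helicase onto DNA. In S phase, CDC45 and the GINS complex join the helicase, primase and the polymerases copy both strands, and the clamp PCNA holds the polymerases on DNA. The transcripts of many of these proteins rise at the G1/S boundary under E2F transcription factors, and their levels follow how many cells of a population are cycling.

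The promoters of several members show the E2F-type letters by which this family is commonly recognised. RefSeq windows of the GRCr8 assembly, from 250 bases before to 50 bases after the start, were at hand for 42 of the 49 symbols (none for Mcm4, Cdc6, Orc1, Rpa3, Rrm2, Ccne2 and E2f1). Both strands were searched for TTTCCCGC, TTTGGCGC, TTTGCCGC and TTTCGCGC. At least 1 of these was found in 17 of the 42 members (40.5%), in 4.47% of the 8438 tested genes with a window and in 2.14% of all 33469 windows. The 5 helicase genes with a window (Mcm2, Mcm3, Mcm5, Mcm6 and Mcm7) each held a match. Stretches upstream of the start are shown for 4 helicase genes, whose signals moved differently between the groups, for the GINS subunit Gins1, which rose with MUC1-CD, and for Ung and the thymidylate synthase gene Tyms, whose signals were lowest in MUC1-CD culture. Each runs 5′ to 3′ on the gene's strand with the match in capitals, and in Mcm2, Mcm6 and Gins1 the capitals cover 2 overlapping matches on opposite strands.
Mcm2 (chr4:122918095-122918134, minus strand): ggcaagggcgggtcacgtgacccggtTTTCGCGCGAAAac
Mcm5 (chr19:13488779-13488812, plus strand): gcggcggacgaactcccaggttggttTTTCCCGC
Mcm6 (chr13:42404454-42404517, minus strand): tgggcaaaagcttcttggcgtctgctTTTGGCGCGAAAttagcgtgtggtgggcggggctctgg
Mcm7 (chr12:22163197-22163256, minus strand): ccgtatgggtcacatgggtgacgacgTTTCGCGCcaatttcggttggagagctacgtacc
Gins1 (chr3:160184869-160184919, plus strand): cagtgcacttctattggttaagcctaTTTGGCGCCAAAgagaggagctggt
Tyms (chr9:120776087-120776146, minus strand): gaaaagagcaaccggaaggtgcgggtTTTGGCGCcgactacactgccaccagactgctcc
Ung (chr12:48154046-48154091, minus strand): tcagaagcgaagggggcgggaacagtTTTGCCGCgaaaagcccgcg
A match of letters is a description and no measure of binding, and a window without one shows only that these letters are not in it. For comparison, CCAAT was found in 26 of the 42 members (61.9%) and 39.7% of tested genes, and the GC box GGGCGG in 28 (66.7%) and 65.1%. The letters TTTGAA, the core of an element common in mitotic promoters, were found in 4 (9.52%) and 12.3%.

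Signals are MAS5 intensities on a linear scale. Changes are differences of log2(signal + 16) ± the standard error (SE) from limma, with 2 arrays a group, and a gene rose or fell where its adjusted p (limma, Benjamini-Hochberg over 18625 probe sets) was under 0.05. Because probe sets bind with different strength, signals of different genes are not compared. The Vector arrays stood apart in RNA quality: the 3′ to 5′ signal ratio of Gapdh was 11.5 and 17.8 there and 1.11 to 1.18 on the other 4 arrays, and that of beta-actin was 4.15 and 41.7 against 2.97 to 3.37. The replicates of Vector culture also differed more, with an SD of the difference between replicates over the members of 0.52 log2, against 0.16 in each of the other groups. P values against Vector may therefore be too small, and RNA quality cannot be told apart from the Vector group. The SE of each comparison draws on all 3 groups, so the Vector spread also enters that of tumors against MUC1-CD culture. P values there may be too large for genes whose Vector arrays differed widely. Fibroblast markers were present in every group (10 of 10 above the filter signal), with a summed signal of 121111 to 125056 in Vector culture, 85137 to 86769 in MUC1-CD culture and 105335 to 109240 in tumors.

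Over the whole set, MUC1-CD culture had a higher mean log2 signal than Vector culture for 39 of the 46 members, with a median change of 0.42 (0.10 with each array divided by its median) where all tested genes had -0.04. MUC1-CD tumors were lower than MUC1-CD culture for 39 of the 46, with a member median of -0.33 against 0.03 for all genes. Against Vector culture the tumors had a member median of 0.08 against -0.02 for all genes, and division by array medians turned it to -0.51 against -0.60. That division shifts all genes of an array alike, and values under it are read against its all-gene medians of -0.35, -0.23 and -0.60 in the 3 comparisons. Each pair of comparisons shares the arrays of 1 group, so the values are given side by side and no relation between the changes is drawn. The median member signal was 860 and 710.2 for Vector culture, 1035 and 1058 for MUC1-CD culture, and 829 and 781 for tumors.

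**Figure D1:**
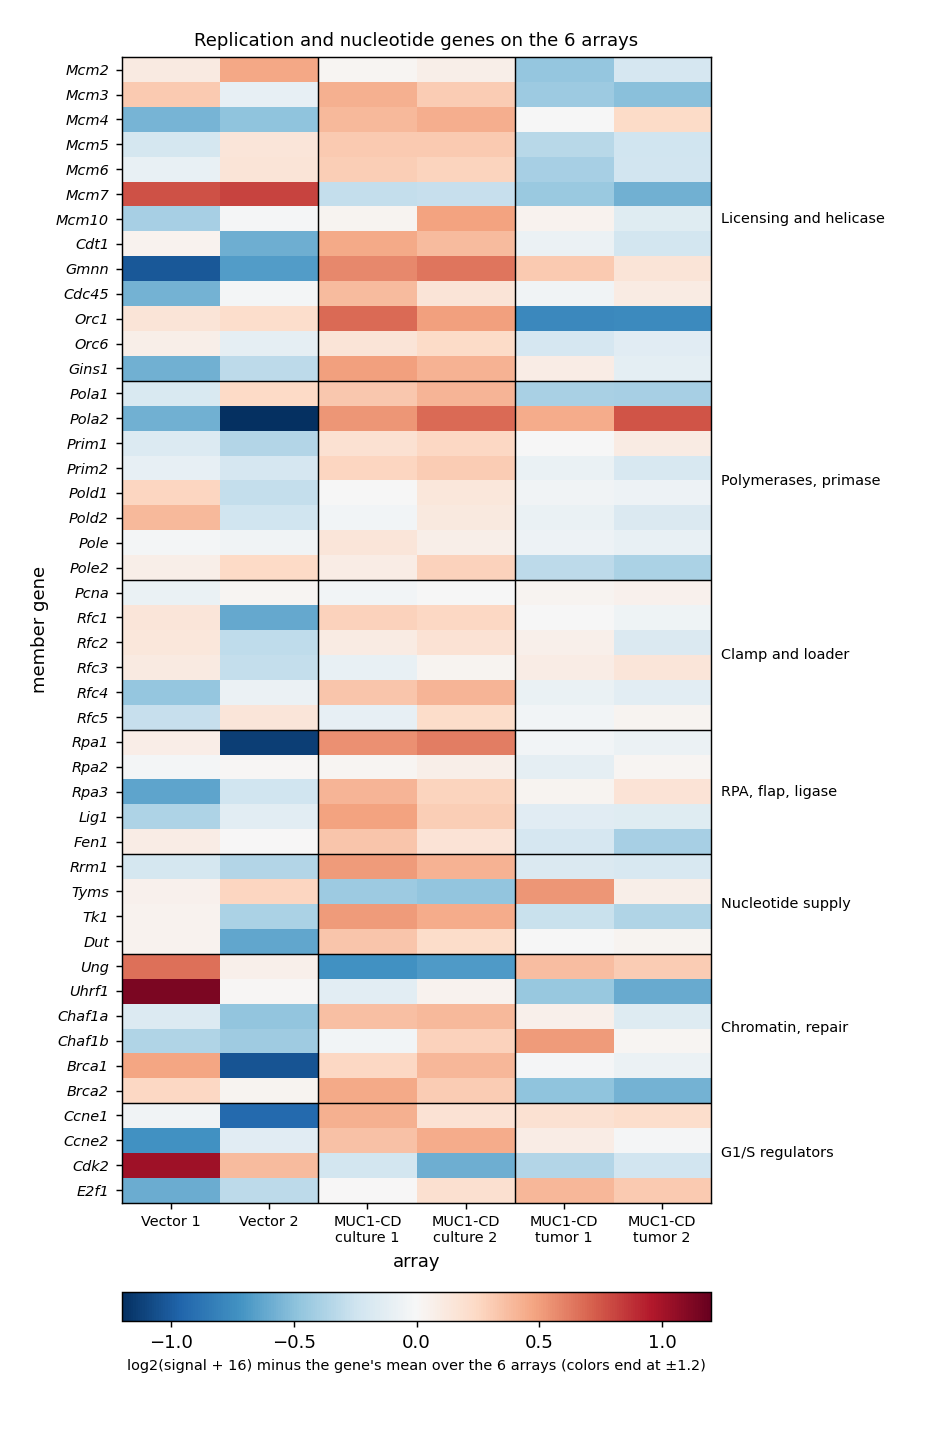
Each row is 1 of the 46 members, grouped by role, and each column 1 array; color gives log2(signal + 16) minus the gene's mean over the 6 arrays, red higher and blue lower. Most rows are reddest in the MUC1-CD culture columns, whereas Mcm7 and Cdk2 are reddest in Vector culture and Ung and Tyms are bluest in MUC1-CD culture.

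In MUC1-CD culture against Vector culture, 16 of the 46 members rose (34.8%) and 3 fell, beside 21.2% of all tested genes called higher and 24.9% called lower. The 16 were Mcm4, Cdt1, Gmnn, Gins1, Pola2, Prim1, Prim2, Rfc4, Rpa1, Rpa3, Lig1, Rrm1, Tk1, Chaf1a, Ccne2 and E2f1, and the 3 were Mcm7, Ung and Cdk2. Both MUC1-CD culture arrays lay above both Vector arrays for 31 members and below both for 5, beside 33.9% and 39.1% of all tested genes. The count depends on the scaling: with each array divided by its median, which moved the median of all genes to -0.35, 5 members rose (Mcm4, Gmnn, Gins1, Pola2 and Rrm1) and 6 fell, beside 13.1% and 39.3% of all genes, while the member median stood 0.45 above that of all genes, against 0.46 with the deposited scaling. It also depends on single arrays. With either MUC1-CD culture array left out, fewer members and a smaller share of all genes were called. With either Vector array left out, more members and a larger share of all genes were called. The member median was 0.41 without MUC1-CD culture replicate 1 and 0.35 without replicate 2, beside -0.04 and -0.03 for all genes. Without Vector replicate 1 it was 0.39 beside -0.05, and without Vector replicate 2 it was 0.36 beside -0.06. Of the 19 calls, Mcm4, Gmnn, Gins1, Rrm1 and Mcm7 held under all 17 alternatives. The calls that held least often were E2f1, under 7, and Cdt1, Prim2 and Rpa1, under 9 each.

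In MUC1-CD tumors against MUC1-CD culture, 9 members fell (19.6%) and 1 rose, beside 8.97% of all tested genes called lower and 9.82% called higher. Those that fell were Mcm3, Mcm5, Mcm6, Orc1, Pola1, Fen1, Rrm1, Tk1 and Brca2, and Ung rose. Both tumor arrays lay below both MUC1-CD culture arrays for 34 members, beside 35.0% of all tested genes. With these groups alone in the fit, 27 members fell and 2 rose (Ung and Tyms). More members and a larger share of all genes were also called with either Vector array left out. In the fit of these groups alone, 22.6% of all genes were called lower and 25.1% higher. With MUC1-CD culture replicate 1 left out limma called 0 members (9 lower and 2 higher at an unadjusted p under 0.05), and with MUC1-CD culture replicate 2, tumor replicate 1 or tumor replicate 2 left out it called 1. A smaller share of all genes was also called in these fits. No call held under all 17 alternatives. After division of each array by its median 21 fell and 1 rose, beside 20.9% and 6.14% of all genes, and the median of all genes moved to -0.23 and that of the members to -0.58.

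Signals of markers of other cell types were higher in tumors than in MUC1-CD culture. The tumors grew in mice and the arrays are for rat genes, so these signals do not measure the amount of host cells. In this comparison 9.82% of all tested genes were called higher and 8.97% lower. The summed signal of 16 macrophage markers was 1244 and 1376 in Vector culture, 3384 and 3575 in MUC1-CD culture and 7872 and 7869 in tumors. The sum thus also differed between the cultures, which hold no host tissue. From MUC1-CD culture to tumors 8 of 11 tested markers rose and 1 fell. Of the 16, 13 lay below the filter signal in MUC1-CD culture against 3 in tumors. For 11 of 12 endothelial markers matched on the array it was 381 and 291 in culture and 2921 and 2827 in tumors, with 4 of 4 tested higher. For 12 of 13 skeletal muscle markers it was 3342 and 3277 in MUC1-CD culture and 13791 and 12961 in tumors, with 9 of 10 tested higher, but 10304 and 10868 in Vector culture, which holds no host tissue. Of 5 erythroid markers on the array 2 were tested and 1 was higher, and of 9 lymphoid and granulocyte markers 1 was tested and was higher. Fewer cycling cells and less RNA per cell cannot be told apart in such bulk samples, and the part of these cell types in the member changes was not tested.

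In MUC1-CD tumors against Vector culture, 6 members rose and 8 fell (17.4%), beside 24.8% of all tested genes called higher and 26.6% called lower. Mcm4, Gmnn, Pola2, Rpa3, Chaf1b and E2f1 rose, and Mcm2, Mcm3, Mcm7, Orc1, Pole2, Uhrf1, Brca2 and Cdk2 fell. Neither share exceeded the background. The division by array medians gave 2 higher and 25 lower, beside 12.2% and 53.9% of all genes, and the member median of 0.08 turned to -0.51 while that of all genes moved to -0.60. Left-out arrays changed the count too, and the share of all genes called moved in the same direction. Both were smaller without a tumor or MUC1-CD culture array and larger without a Vector array. The member median was 0.06 without tumor replicate 1 and 0.11 without tumor replicate 2, beside -0.02 and -0.01 for all genes. Without Vector replicate 1 it was 0.07 beside -0.01, and without Vector replicate 2 it was -0.04 beside -0.03. Gmnn, Mcm7 and Orc1 held under all 17 alternatives, and Chaf1b held least often, under 8.

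**Figure D2:**
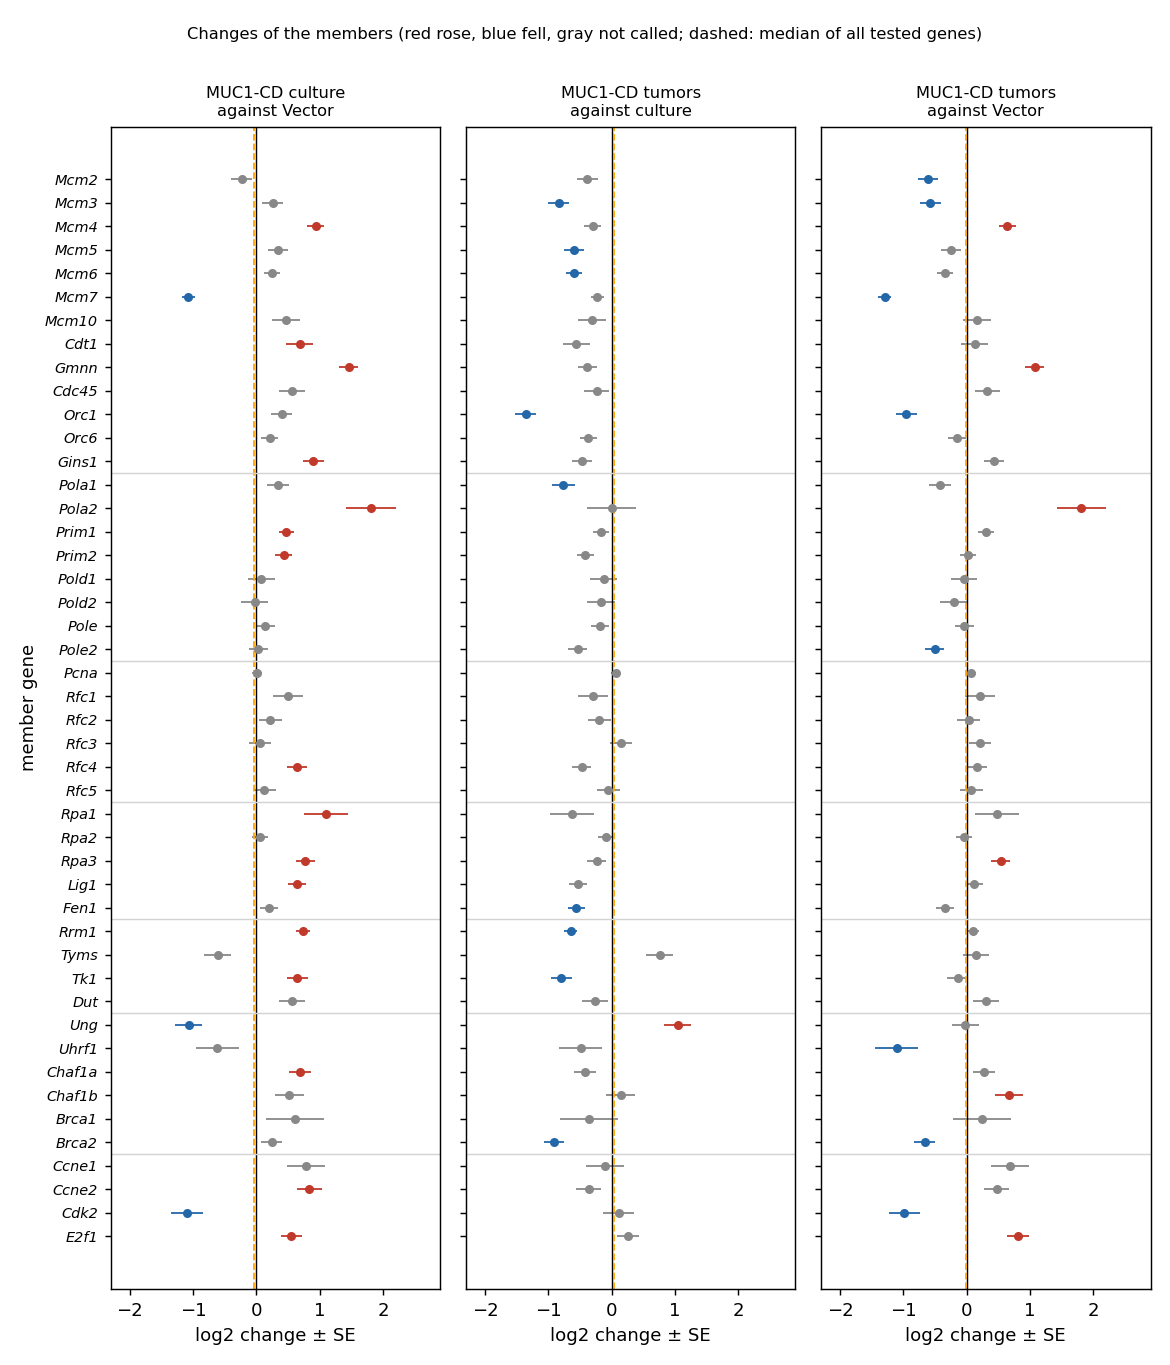
Points are the log2 changes of the 46 members with their SE in the 3 comparisons, red where the gene rose, blue where it fell and gray where it was not called; the dashed line is the median of all tested genes. In the left panel 16 points are red and 3 blue, in the middle panel 9 are blue and 1 red, and in the right panel 6 are red and 8 blue.

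Among the 13 licensing and helicase genes, 4 rose and 1 fell with MUC1-CD in culture, beside 21.2% and 24.9% of all tested genes. In tumors against MUC1-CD culture 4 fell, beside 8.97% of all tested genes. The MCM2 to MCM7 proteins form 1 ring-shaped helicase with 1 copy of each. Among their transcripts, each read by 1 probe set, Mcm4 rose and Mcm7 fell in MUC1-CD culture against Vector. The proteins were not measured on these arrays. Mcm4 had signals of 778 and 819.8 in Vector culture, 1518.5 and 1566 in MUC1-CD culture and 1148 and 1361.5 in tumors. Both Vector arrays were the lowest and the groups did not overlap, with a change of 0.94 ± 0.13 (adjusted p = 0.00189) in MUC1-CD culture and 0.64 ± 0.13 (adjusted p = 0.00775) in tumors against Vector.

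Mcm7 went the other way in both MUC1-CD settings. Its signals were 4178 and 4309 in Vector culture, 1999 and 2016 in MUC1-CD culture and 1794 and 1639.9 in tumors. The Vector arrays were highest by a wide margin, and the change in MUC1-CD culture was -1.07 ± 0.10 (adjusted p = 0.000407). In tumors it was -1.30 ± 0.10 (adjusted p = 0.000154) against Vector and -0.23 ± 0.10 (adjusted p = 0.196) against MUC1-CD culture.

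Mcm3 signals were 1459.5 and 1092 in Vector culture, 1579 and 1448 in MUC1-CD culture and 861 and 823 in tumors. Tumors were lowest without overlap, whereas the cultures overlapped, and the gene fell by 0.83 ± 0.17 (adjusted p = 0.0192) in tumors against MUC1-CD culture. Mcm5 signals were 879.8 and 1127 in Vector culture, 1266 and 1270.2 in MUC1-CD culture and 807 and 861.5 in tumors, and it fell by 0.60 ± 0.15 (adjusted p = 0.0451) in the same comparison. For Mcm6 they were 2360.1 and 2806.5 in Vector culture, 3084 and 3036 in MUC1-CD culture and 1906.5 and 2148 in tumors, with a fall of 0.59 ± 0.13 (adjusted p = 0.0249). Both Mcm5 and Mcm6 were highest in MUC1-CD culture and lowest in tumors, with no overlap between any groups, and neither was called against Vector in culture (0.34 and 0.25).

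Mcm2 signals were 2179 and 2802 in Vector culture, 2066 and 2131 in MUC1-CD culture and 1462 and 1764 in tumors, highest in Vector and lowest in tumors. The gene was called only in tumors against Vector, with -0.62 ± 0.16 (adjusted p = 0.0174). Under division by array medians, all 6 helicase genes fell in tumors against MUC1-CD culture, where 20.9% of all genes did, and in MUC1-CD culture against Vector the median of the 6 turned from 0.25 to -0.07, beside -0.35 for all genes. Mcm10, a factor that helps activate the loaded helicase, was called in no comparison (0.47, -0.31 and 0.16 in the order of the comparisons above), although its weaker second probe set rose by 1.81 in MUC1-CD culture against Vector.

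**Figure D3:**
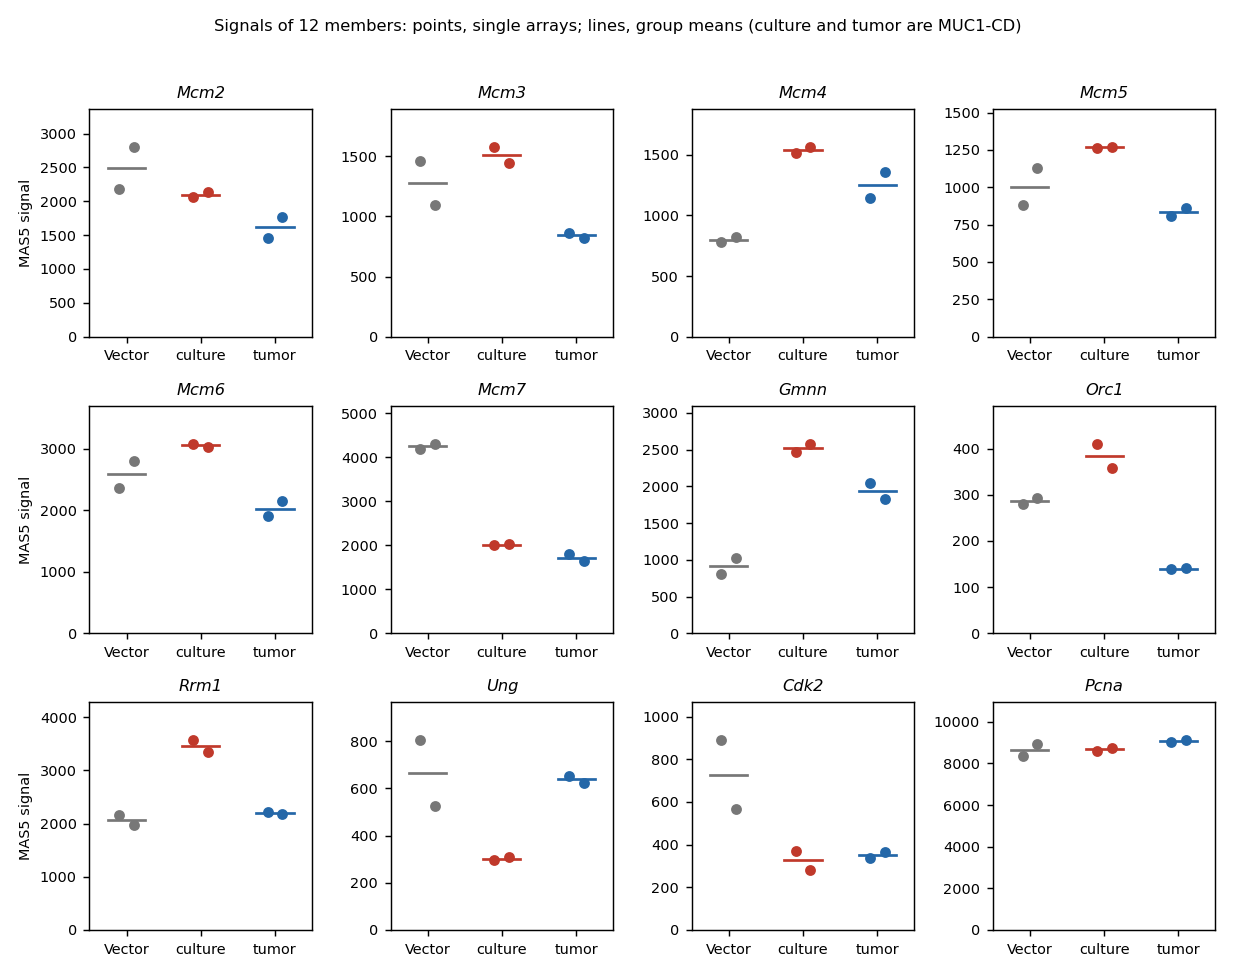
Points are the MAS5 signals of single arrays for 12 members and lines the group means, each panel with an axis from 0; culture and tumor are the MUC1-CD groups. Mcm7 and Cdk2 are highest in Vector, Mcm4 and Gmnn lowest there, Orc1 is lowest in tumors at 139 and 141, and Pcna is nearly level at 8342 to 9121.

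Gmnn encodes geminin, which binds CDT1 and blocks renewed licensing after origins have fired. Its signals were 804 and 1027 in Vector culture, 2465 and 2582 in MUC1-CD culture and 2046 and 1827 in tumors. All 4 MUC1-CD arrays lay above both Vector arrays, with a change of 1.46 ± 0.15 (adjusted p = 0.000503) in culture and 1.08 ± 0.15 (adjusted p = 0.00137) in tumors. A second, weak Gmnn probe set (55.6 to 91.9 on all arrays) changed by 0.32 in culture and was not called.

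Cdt1 itself, the loading factor that geminin inhibits, had 1008 and 648 in Vector culture, 1341 and 1275 in MUC1-CD culture and 927 and 839 in tumors. MUC1-CD culture was highest and the other groups overlapped, with 0.68 ± 0.21 (adjusted p = 0.0371) against Vector and -0.56 ± 0.21 (adjusted p = 0.127) for tumors against MUC1-CD culture. Orc1, the largest subunit of the origin recognition complex, had 280 and 293 in Vector culture, 411 and 358 in MUC1-CD culture and 139 and 141 in tumors. The tumor arrays were far below all others, a fall of 1.36 ± 0.17 (adjusted p = 0.00338) against MUC1-CD culture and 0.95 ± 0.17 (adjusted p = 0.00345) against Vector. Its difference between the cultures was 0.40 ± 0.17 and was not called. Orc6, another subunit of that complex, was not called in any comparison (0.21, -0.36 and -0.15).

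Gins1 and Cdc45 encode parts of the active helicase. For Gins1 the signals were 398 and 482 in Vector culture, 855 and 810 in MUC1-CD culture and 642 and 553 in tumors. MUC1-CD culture was highest and Vector lowest, with no overlap, and the gene rose by 0.90 ± 0.16 (adjusted p = 0.00457) in culture. The tumor values were -0.47 ± 0.16 (adjusted p = 0.0992) against MUC1-CD culture and 0.43 ± 0.16 (adjusted p = 0.0626) against Vector. Cdc45 was 0.56 higher in MUC1-CD culture and was not called (adjusted p = 0.0592), while its next brightest probe sets rose by 0.99 and 0.81.

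Of the 8 polymerase and primase genes, 3 rose in MUC1-CD culture against Vector, beside 21.2% of all tested genes. These 3 belong to the complex of polymerase alpha and primase, which lays the first RNA and DNA of each new strand. Pola2, the regulatory subunit of this complex, had signals of 146 and 52.1 in Vector culture, 335 and 371.5 in MUC1-CD culture and 315 and 395 in tumors. All MUC1-CD arrays were above the Vector arrays, which differed widely between themselves, and the changes were 1.81 ± 0.39 (adjusted p = 0.00964) in culture and 1.81 ± 0.39 (adjusted p = 0.00834) in tumors. Without Vector replicate 1 they were 2.44 and 2.44, and without Vector replicate 2 they were 1.18 and 1.18. Tumors and MUC1-CD culture overlapped.

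Prim1, the catalytic primase subunit, had 1557 and 1369.9 in Vector culture, 1985 and 2079.7 in MUC1-CD culture and 1741 and 1877 in tumors. Prim2, its partner, had 682 and 638 in Vector culture, 883 and 908 in MUC1-CD culture and 695 and 641.5 in tumors. Both were highest in MUC1-CD culture, where they rose by 0.47 ± 0.12 (adjusted p = 0.0188) and 0.43 ± 0.13 (adjusted p = 0.0353). Neither call held with arrays divided by their medians, and Prim2 was then called lower in tumors against Vector at -0.57, beside -0.60 for all genes.

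Pola1, the catalytic subunit of polymerase alpha, was not called in culture (0.34) but fell in tumors. Its signals were 527 and 713 in Vector culture, 755.5 and 805 in MUC1-CD culture and 455 and 452 in tumors. The tumor arrays were the lowest, at -0.76 ± 0.18 (adjusted p = 0.0319) against MUC1-CD culture. The subunits of the replicative polymerases delta (Pold1 and Pold2) and epsilon (Pole and Pole2) lay between -0.03 and 0.14 in MUC1-CD culture against Vector, and were not called. Their tumor values against MUC1-CD culture lay between -0.53 and -0.12. Pole2, a subunit of the leading-strand polymerase, was the member called against Vector, with tumor signals of 463 and 443 against 611 and 690 and a fall of 0.50 ± 0.15 (adjusted p = 0.0284).

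Pcna, the sliding clamp and a classic label of cycling cells, was called in no comparison. Its signals were 8342.5 and 8932 in Vector culture, 8609 and 8760 in MUC1-CD culture and 9023 and 9121 in tumors. The cultures overlapped and both tumor arrays lay slightly above all others, with changes of 0.01 ± 0.08, 0.06 ± 0.08 and 0.07 ± 0.08 in the 3 comparisons. With arrays divided by their medians it was called lower against Vector, at -0.32 in MUC1-CD culture and -0.52 in tumors, where all genes had medians of -0.35 and -0.60.

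Replication factor C opens the clamp and loads it on DNA. Of its 5 subunits Rfc4 rose in MUC1-CD culture, where 21.2% of all tested genes did. Rfc4 signals were 1194 and 1579.8 in Vector culture, 2095 and 2203 in MUC1-CD culture and 1566 and 1518 in tumors. Its highest signals were in MUC1-CD culture and the other groups overlapped, with 0.64 ± 0.15 (adjusted p = 0.0148) against Vector and -0.47 ± 0.15 (adjusted p = 0.0862) for tumors. Rfc1, Rfc2, Rfc3 and Rfc5 lay between 0.06 and 0.49 in culture and were not called. The 3 probe sets of Rfc1 went apart: the brightest was not called at 0.49, another fell by 1.12 with signals of 932 and 918 in Vector and 403 and 428 in MUC1-CD culture, and the weakest rose by 2.09 from 86.5 and 5.2 to 158 and 209. The direction of Rfc1 is therefore not given.

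Replication protein A coats single-stranded DNA, and 2 of its 3 subunits rose in MUC1-CD culture, beside 21.2% of all tested genes. Rpa1, the large subunit, had 1559 and 666 in Vector culture, 2158 and 2257 in MUC1-CD culture and 1436 and 1403 in tumors. MUC1-CD culture was highest, but the Vector arrays lay far apart, and the change was 1.10 ± 0.35 (adjusted p = 0.0391). Without Vector replicate 2 it was 0.50, and without Vector replicate 1 it was 1.71. In tumors against MUC1-CD culture Rpa1 changed by -0.63 ± 0.35 (adjusted p = 0.268). Both tumor arrays lay below both MUC1-CD culture arrays, and this SE takes in the spread of the Vector arrays.

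Rpa3, the small subunit, had 2068 and 2713 in Vector culture, 4259.8 and 3849 in MUC1-CD culture and 3287 and 3585 in tumors. All 4 MUC1-CD arrays were above the Vector arrays, with 0.77 ± 0.15 (adjusted p = 0.00645) in culture and 0.53 ± 0.15 (adjusted p = 0.0236) in tumors, where division by array medians turned the value to -0.06, beside -0.60 for all genes. Rpa2, the middle subunit, was nearly level at 889 to 1011 on all arrays and was not called.

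Lig1 and Fen1 finish the Okazaki fragments of the lagging strand, FEN1 by trimming the flap and DNA ligase I by sealing the nick. Lig1 signals were 909.5 and 1083 in Vector culture, 1657 and 1450.4 in MUC1-CD culture and 1073 and 1068 in tumors. The highest signals were again in MUC1-CD culture, where Lig1 rose by 0.63 ± 0.14 (adjusted p = 0.0114), and a second Lig1 probe set rose by 1.93, while tumors changed by -0.53 ± 0.14 (adjusted p = 0.0516). Fen1 signals were 1044 and 986 in Vector culture, 1243 and 1104 in MUC1-CD culture and 850.1 and 739 in tumors. Tumors were lowest and fell by 0.55 ± 0.14 (adjusted p = 0.0419), whereas the difference between cultures was 0.20 and not called.

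Among the 4 nucleotide genes measured, Rrm1 and Tk1 rose in MUC1-CD culture and fell in tumors against MUC1-CD culture. Of all tested genes, 21.2% were called higher in the first comparison and 8.97% lower in the second. Rrm1 encodes the large subunit of ribonucleotide reductase, which makes deoxynucleotides. Its signals were 2169 and 1966 in Vector culture, 3571 and 3351 in MUC1-CD culture and 2214 and 2190 in tumors. MUC1-CD culture was highest and the tumors lay just above both Vector arrays, with 0.74 ± 0.11 (adjusted p = 0.00196) in culture, -0.65 ± 0.11 (adjusted p = 0.0104) in tumors against MUC1-CD culture and 0.09 ± 0.11 (adjusted p = 0.501) against Vector.

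Tk1, the thymidine kinase of the salvage pathway, had 1176 and 869 in Vector culture, 1629.9 and 1557 in MUC1-CD culture and 944 and 884 in tumors. MUC1-CD culture was highest, with 0.65 ± 0.17 (adjusted p = 0.0191), and tumors lay within the range of the Vector arrays, with -0.79 ± 0.17 (adjusted p = 0.0237) against MUC1-CD culture. Its other probe sets changed by 0.38 and 0.49 in culture and were not called, and 1 of these fell in tumors by 0.82.

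Tyms, the thymidylate synthase gene, was not called. Its signals were 242 and 282 in Vector culture, 168 and 163 in MUC1-CD culture and 343 and 246 in tumors. Both MUC1-CD culture arrays were the lowest, at -0.61 ± 0.21 (adjusted p = 0.0515) against Vector, and tumors were 0.76 ± 0.21 (adjusted p = 0.0559) against them. Dut, which removes dUTP before it can enter DNA, was 0.57 higher in MUC1-CD culture and not called (adjusted p = 0.0642), while its weaker probe set rose by 1.60.

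Ung encodes uracil-DNA glycosylase, which removes uracil from DNA, and it fell in MUC1-CD culture and was higher in tumors than there. Its signals were 804.5 and 525 in Vector culture, 296 and 307 in MUC1-CD culture and 654.5 and 622 in tumors. MUC1-CD culture was lowest without overlap, at -1.07 ± 0.21 (adjusted p = 0.00717), and the tumor arrays were again within the range of the Vector arrays, 1.04 ± 0.21 (adjusted p = 0.0214) above MUC1-CD culture. Against Vector the tumor value was -0.03 ± 0.21 (adjusted p = 0.925).

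Chromatin assembly factor 1 deposits histones behind the fork. Its large subunit Chaf1a had 480.3 and 383 in Vector culture, 696 and 709.9 in MUC1-CD culture and 562 and 482 in tumors and rose by 0.69 ± 0.17 (adjusted p = 0.0156) in culture. Chaf1b, the middle subunit, had 183 and 173 in Vector culture, 234 and 294 in MUC1-CD culture and 348 and 244 in tumors. The tumor arrays differed between themselves but lay above both Vector arrays, with 0.66 ± 0.22 (adjusted p = 0.044). Both subunits were lowest in Vector culture on both arrays.

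Uhrf1, which recruits the maintenance DNA methyltransferase to new DNA, had 1451 and 661 in Vector culture, 596 and 675.5 in MUC1-CD culture and 472 and 423 in tumors. Vector replicate 1 stood far above the other arrays and the cultures overlapped, while tumors were lowest at -1.11 ± 0.34 (adjusted p = 0.0312) against Vector. Without Vector replicate 1 this change was -0.55, and the call was lost with any 1 of the 4 MUC1-CD arrays left out. Brca2, which acts in recombination repair and at stalled forks, had 441 and 376 in Vector culture, 512 and 459 in MUC1-CD culture and 258 and 243 in tumors. Tumors were lowest without overlap and fell by 0.91 ± 0.16 (adjusted p = 0.0135) against MUC1-CD culture and 0.67 ± 0.16 (adjusted p = 0.0136) against Vector. Brca1 had the largest log2 gap between replicates of all members, 155.5 and 44.2 in Vector culture, and was not called in any comparison (0.60, -0.36 and 0.24).

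Cyclin E with its kinase CDK2 starts S phase, and E2F1 drives the transcription of the genes that follow. Ccne2, a cyclin E gene, had 860.5 and 1301 in Vector culture, 1840.1 and 1957 in MUC1-CD culture and 1524 and 1422 in tumors. All MUC1-CD arrays were above the Vector arrays, with 0.83 ± 0.20 (adjusted p = 0.014) in culture and 0.47 ± 0.20 (adjusted p = 0.0873) in tumors, and a second, weak probe set changed by -0.04. Ccne1 had 219 and 111 in Vector culture, 310.4 and 257 in MUC1-CD culture and 259 and 265 in tumors and was 0.79 higher in culture but not called (adjusted p = 0.0706).

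Cdk2 fell while its cyclins did not. Its signals were 889.7 and 566 in Vector culture, 370.4 and 282 in MUC1-CD culture and 335 and 367 in tumors. Both Vector arrays were above all 4 MUC1-CD arrays, with -1.10 ± 0.25 (adjusted p = 0.0115) in culture and -0.99 ± 0.25 (adjusted p = 0.0154) in tumors, and the second Cdk2 probe set fell by 1.31 in culture. E2f1 had 244 and 301 in Vector culture, 378 and 434 in MUC1-CD culture and 500.3 and 472 in tumors. Its signals were lowest in Vector and highest in tumors with no overlap, and it rose by 0.55 ± 0.17 (adjusted p = 0.0373) in culture and 0.81 ± 0.17 (adjusted p = 0.0081) in tumors against Vector. The E2f1 call in culture held under 7 of 17 alternatives. Neither E2f1 call held with arrays divided by their medians.

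By pattern over the 3 comparisons, 16 of the 46 members were called in none with the probe set used. They were Mcm10, Cdc45, Orc6, Pold1, Pold2, Pole, Pcna, Rfc1, Rfc2, Rfc3, Rfc5, Rpa2, Tyms, Dut, Brca1 and Ccne1. Dimmer probe sets of Mcm10, Cdc45 and Dut were called higher in MUC1-CD culture and also in tumors against Vector. In tumors these rose by 1.47 for Mcm10, 0.81 and 0.71 for Cdc45 and 1.67 for Dut.

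Other genes of the same pathways that are no members were described from separate lists. Of 39 further replication genes tested, 9 rose and 1 fell in MUC1-CD culture against Vector, beside 21.2% and 24.9% of all tested genes. Their median was 0.22 beside -0.04 for all genes. In tumors against MUC1-CD culture 4 fell, beside 8.97% of all tested genes, with a median of -0.19 beside 0.03. Top2a, which untangles replicated chromosomes, had 1977 and 1389 in Vector culture, 3639 and 3780 in MUC1-CD culture and 2117 and 2126 in tumors. It was highest in MUC1-CD culture, rising by 1.15 ± 0.17 (adjusted p = 0.00208) and falling by 0.80 ± 0.17 in tumors (adjusted p = 0.0239). Bard1, the partner of BRCA1, rose by 1.87 in culture, the histone chaperone gene Asf1b by 0.95 and Top1 by 0.58. In tumors against MUC1-CD culture the mismatch repair gene Msh6 fell by 0.67, the histone chaperone gene Asf1a by 0.66 and the nuclease gene Exo1 by 0.88. In tumors against Vector 6 of the 39 rose and 9 fell, beside 24.8% and 26.6% of all tested genes. Msh6 fell by 1.08, while Top1 was higher by 0.82, the polymerase delta subunit Pold4 by 0.93 and Bard1 by 1.42. With arrays divided by their medians 4 rose and 13 fell in culture, beside 13.1% and 39.3% of all genes, and the median was -0.10 beside -0.35.

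The supply of purines, pyrimidines and folate units was described by 28 further tested genes. Of these, 3 rose and 10 fell in MUC1-CD culture against Vector, beside 21.2% and 24.9% of all tested genes, with a median of -0.24. In tumors against MUC1-CD culture 3 fell, beside 8.97% of all tested genes. Adsl, a purine synthesis enzyme, had 2861 and 2416 in Vector culture, 892 and 881 in MUC1-CD culture and 604 and 730.1 in tumors. The Vector arrays were highest, and Adsl fell by 1.55 ± 0.15 in culture (adjusted p = 0.000408). Mthfd1, which supplies folate-bound carbon units, had 5199 and 4955 in Vector culture, 3668 and 3579 in MUC1-CD culture and 1301.5 and 1286 in tumors. It stepped down without overlap, by 0.48 ± 0.10 in culture (adjusted p = 0.00709) and by 1.47 ± 0.10 in tumors (adjusted p = 0.000318). Gmps, which makes GMP, fell by 0.58 in culture, and Adss2, of the AMP branch, rose by 0.80. The genes of phosphoribosyl pyrophosphate synthesis fell in tumors, Prps2 by 1.17 and Prps1 by 0.48. In tumors against Vector 3 of the 28 rose and 12 fell, beside 24.8% and 26.6% of all tested genes. With arrays divided by their medians 1 rose and 18 fell in culture, beside 39.3% of all genes called lower, and the list median was -0.22 relative to that of all genes against -0.20 with the deposited scaling.

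Regulators of the E2F and RB families went both ways. In MUC1-CD culture 6 of 15 were higher and 3 lower, beside 21.2% and 24.9% of all tested genes. In tumors against MUC1-CD culture 1 was lower, beside 8.97%. In tumors against Vector 4 were higher and 4 lower, beside 24.8% and 26.6%. Mybl2, which with the MuvB complex drives late cell cycle genes, rose by 1.30, from 182 and 176 to 455 and 477. Lin52, a subunit of MuvB, fell by 1.17, the E2F partner Tfdp2 by 1.23 and the pocket protein gene Rbl2 by 0.82. Rb1 fell by 1.27 in tumors against MUC1-CD culture, from 760.3 and 658 to 239 and 335.5.

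Among 7 tested genes of D cyclins, their kinases and CDK inhibitors, 2 rose and 2 fell in MUC1-CD culture. The shares of all tested genes were 21.2% and 24.9%. Cdkn1a, the p21 inhibitor of cyclin E and CDK2, had 7281 and 6939 in Vector culture, 2543 and 2032 in MUC1-CD culture and 1508 and 1583 in tumors. It fell by 1.64 ± 0.13 in culture (adjusted p = 0.0002) and by 0.55 ± 0.13 in tumors against MUC1-CD culture (adjusted p = 0.0346). Cdk4 fell by 1.55 in culture, Cdkn2d, an inhibitor of CDK4, rose by 1.95 and the cyclin D1 gene Ccnd1 rose by 0.57.

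Genes of mitosis are the other large group that dividing cells express. Of 26 tested, 23 rose in MUC1-CD culture against Vector, with a median of 1.24, beside the member median of 0.42. In tumors against MUC1-CD culture 17 fell, with a median of -0.67 beside -0.33, and against Vector 14 rose and 1 fell, with a median of 0.54 beside 0.08. Mad2l1, a spindle checkpoint gene, rose by 2.20 in culture, from 244 and 283 to 1259 and 1278, and stayed at 1194 and 1096 in tumors. Cenpf, of the kinetochore, had 701 and 773 in Vector culture, 2750.5 and 2703 in MUC1-CD culture and 851 and 960.5 in tumors, rising by 1.87 and falling by 1.58. Ccnb2 rose by 1.60 and Prc1 by 1.45 in culture, and Kif20a fell by 1.57, Bub1b by 1.21 and Ccnb1 by 0.80 in tumors. Of all tested genes, 21.2% were called higher in MUC1-CD culture and 8.97% lower in tumors against MUC1-CD culture. In tumors against Vector 24.8% were called higher and 26.6% lower. The difference between the lists was not tested. With arrays divided by their medians 22 of the 26 rose in culture and 20 fell in tumors against MUC1-CD culture, while the median against Vector in tumors turned to -0.03, beside -0.60 for all genes.

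**Figure D4:**
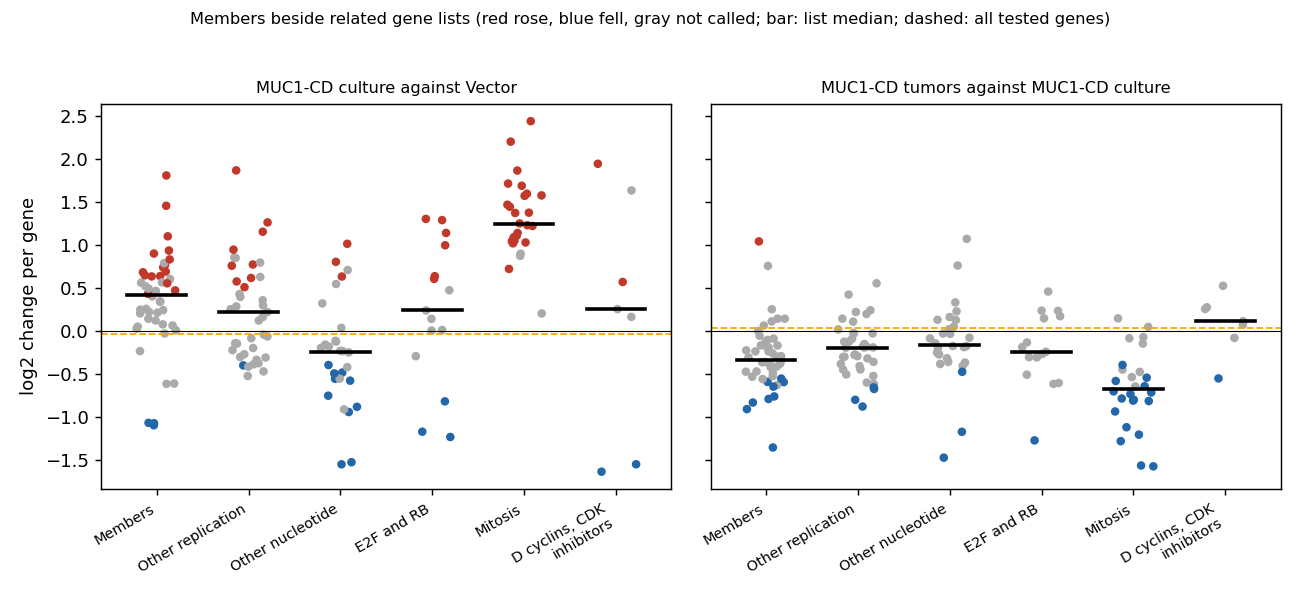
Each point is the log2 change of 1 gene, red where it rose, blue where it fell and gray where it was not called; bars are list medians and the dashed line the median of all tested genes. The mitosis list has 23 red points of 26 on the left and 17 blue on the right, against 16 and 9 of 46 for the members.

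The position of the members in the GRCr8 assembly was described by chromosome. Chromosome 12 held 7 of the 46 (Mcm7, Pole, Rfc2, Rfc3, Rfc5, Ung and Brca2), of which Mcm7 and Ung fell in MUC1-CD culture and the others were not called, with a median of 0.12 beside -0.23 for 342 other tested genes there. Cdk2 and Prim1 lie on chromosome 7, where 654 other tested genes had a median of -0.65. The 39 members on other chromosomes than 12 had 16 higher, 1 lower and a median of 0.49, beside 21.2% and 24.9% of all tested genes. Since Mcm7 and Ung lie on chromosome 12, leaving it out fixes that lower count. The part of chromosome position in the changes was not tested. Taken against the median of the other genes of its own chromosome, a member's change had a median of 0.42 in culture, with 37 of 46 above 0, and -0.40 in tumors against MUC1-CD culture, with 41 below 0.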

How the data were processed

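The 6 arrays were placed in their groups by their own labels. The authors deposited MAS5 signals, a linear intensity per probe set, as the submitters' processing notes name them; no MAS5 version is given in the sources used here. The authors' scaling (a 2% trimmed mean of 500.2 on every array) was kept. Of 31042 probe sets other than controls, 20826 named a single gene, 436 several and 9780 were not listed. Symbols were updated to the GRCr8 annotation.

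Signals were transformed as log2(signal + 16), and 18625 probe sets passed a minimum mean of 61.6, the 40th percentile. The 6 arrays were fitted in 1 model with group as its term in limma 3.58.1 (R 4.3.3; lmFit, then eBayes with a trend; 3 residual degrees of freedom, median prior 3.70), with 2-sided p values adjusted by Benjamini-Hochberg and a threshold of 0.05. The code was tested on simulated data. Nothing says that replicates came from separate cultures or animals beyond the word biological, so p values measure the spread between these arrays, whose number limits the precision. All members were named, with every array for the 10 largest changes of each comparison and for called members against the majority; from other lists up to 4 genes with the smallest p were named. The members and lists were chosen with earlier results of these data known. Alternatives were other pseudocounts, filters and scalings, eBayes without a trend, array weights, a replicate block, the mean of a gene's probe sets, fits of the compared groups alone, and each array left out.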

Additional observations from a re-analysis of the deposited data

How the results depend on the processing

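The number of called members depended most on the scaling and on which arrays informed the spread; pseudocounts of 1 and 64 changed 0 and 1 member calls over the 3 comparisons. With each array divided by its median, the medians of all genes moved to -0.35, -0.23 and -0.60. Then 11 members were called in MUC1-CD culture against Vector culture (median 0.10), beside 13.1% of all genes higher and 39.3% lower. In tumors against MUC1-CD culture 22 were called (median -0.58), beside 6.14% and 20.9%. In tumors against Vector 27 were called (median -0.51), beside 12.2% and 53.9%. Under that setting Pcna turned to -0.32 in MUC1-CD culture against Vector, and in tumors against Vector Pcna turned to -0.52, Prim2 to -0.57, Rfc2 to -0.56, Rfc5 to -0.52, Rpa3 to -0.062, Lig1 to -0.48 and Rrm1 to -0.50. Quantile normalization turned the member median in tumors against Vector to -0.0071. In tumors against MUC1-CD culture 28 members were called with array weights and 29 with the compared groups alone; in tumors against Vector the latter gave 9. The fit without the Vector arrays has fewer samples and leaves out the group with the widest replicate spread.

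With 1 array left out, the called members ranged from 6 to 28 in MUC1-CD culture against Vector (median 0.35 to 0.42), from 0 to 29 in tumors against MUC1-CD culture (median -0.40 to -0.31) and from 5 to 27 in tumors against Vector (median -0.039 to 0.11). A group reduced to 1 array took its spread from the other groups. Replicate numbers did not pair the samples (correlations of their deviations -0.02, -0.03 and -0.04). With a replicate block 14 members rose and 3 fell in the first comparison (17 called), beside 20.4% and 23.7% of all genes. In the second 1 rose and 7 fell (8 called), beside 8.29% and 7.31%. In the third 5 rose and 8 fell (13 called), beside 24.1% and 25.2%. Of 2343 values of single members under alternatives, 2031 kept their direction and side of the threshold, or changed sign without a call in either fit (77), 146 lost a call, 158 gained one and 8 reversed. Weak probe sets and 2 arrays a group limit what can be detected.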

Other observations

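The 17 members with an E2F-type match in their promoter window and the 24 measured members with a window and no match were described side by side. In MUC1-CD culture against Vector culture, 4 of the 17 rose and 2 fell, with a median of 0.14. Of the 24, 8 rose and 1 fell, with a median of 0.48. The shares of all tested genes called higher and lower were 21.2% and 24.9%. In MUC1-CD tumors against MUC1-CD culture, 1 of the 17 rose (Ung) and 4 fell (Mcm3, Mcm5, Mcm6 and Pola1), with a median of -0.47. Of the 24, 4 fell, with a median of -0.28. Here 9.82% of all tested genes were called higher and 8.97% lower. The difference between these groups of genes was not tested.

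For 11 members more than 1 probe set named the gene. Of 15 further tested probe sets, 13 had the sign of the one used in MUC1-CD culture against Vector culture, 12 in tumors against MUC1-CD culture and 13 in tumors against Vector, and none was called against the call of the one used, while the dimmer probe sets of Rfc1 were called in opposite directions to each other in MUC1-CD culture. Several of the dimmer probe sets had larger rises against Vector than the brightest of the same gene: 1.93 against 0.63 for Lig1, 1.81 against 0.47 for Mcm10 and 1.60 against 0.57 for Dut. For Lig1 the dimmer probe set had signals of 253 and 297 in Vector culture, 1115 and 1059 in MUC1-CD culture and 945 and 929 in tumors. The Vector arrays are those with the high 3′ to 5′ control ratios, and their part in these rises was not tested.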
